A study of Mus musculus with 24 samples.

Results

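Messenger RNA of 10 genes that mark Purkinje cells was followed in whole cerebellum of mice lacking Derlin-1 or Derlin-2 in the central nervous system. The members were every microarray probe whose transcript accession belonged to Pcp2, Pcp4, Calb1, Rgs8, Car8, Itpr1, Ppp1r17, Rora, Foxp2 or Pvalb, which gave 17 of the 56605 probes measured. All 17 passed the filter on dim probes, as did 38323 probes in all, and 16 of the 17 were well above background on all 24 arrays. The exception was 1 of the 3 Rora probes (A_55_P2068006), well above background on 18 arrays.

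Purkinje cells are the large GABAergic neurons whose axons are the only output of the cerebellar cortex. They receive excitation from granule neurons through parallel fibres and from climbing fibres, and glutamate acting on their metabotropic receptors releases calcium from the endoplasmic reticulum (ER) through the inositol trisphosphate receptor, which these cells hold in great abundance. Derlin-1 and Derlin-2 sit in the ER membrane and help to remove misfolded proteins from it, so the design asks what their loss does to cerebellar transcripts and whether 4-phenylbutyrate (4PBA), a chemical chaperone, alters them.

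All mice were C57BL/6, and cerebella were taken on postnatal day 28. Controls carried a floxed Derl1 or Derl2 gene on both alleles without Cre, and knockouts (KO) carried the same alleles with Cre under the nestin promoter, which is active in neural precursors, so that the deletion is not specific to Purkinje cells. Groups named 4PBA received 200 mg/kg by daily intraperitoneal injection from day 14 to day 28, and vehicle groups received water. The Derlin-1 line had a numbered series (control or KO, with vehicle or 4PBA) and a lettered series (control or KO, untreated or with 4PBA, where the untreated titles name no vehicle), while the Derlin-2 line had control and KO groups with vehicle or 4PBA. Each of these 12 groups held 2 arrays. The labels do not say whether the 2 came from separate animals, so p-values measure only the spread between these samples.

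Each series lay on a slide of its own with 8 arrays, the lettered one scanned on another day. Within a slide, row 1 held the arrays without 4PBA and row 2 those with it, so slide row and treatment cannot be told apart. The share of spots well above background was 57.7% to 68.4%. On the numbered Derlin-1 slide the 4PBA row held 60.3% to 63.8% and the vehicle row 63.6% to 65.2%, and on the Derlin-2 slide 57.7% to 62.9% against 63.5% to 66.9%. The targeted genes checked the labels. Derl2 (A_51_P498831) was at 1.43, 1.54, 1.58 and 1.40 on the Derlin-2 control arrays and at 0.48, 0.18 and 0.24 on 3 arrays of the Derlin-2 KO groups, but at 1.72 on the one labelled Derlin-2 KO vehicle 1. Derl1 (A_51_P504522) ranged from 0.76 to 1.22 on Derlin-1 control arrays and from 0.14 to 0.94 on arrays labelled Derlin-1 KO, so its levels overlapped; whether the probe lies in the deleted part is not given in the sources used here. Derl3, which rose in Derlin-1 KO without 4PBA by 2.13 on the log2 scale (SE 0.40, adjusted p 0.0109 in limma), was at -2.27 on that labelled Derlin-1 KO 4PBA b and between -0.63 and 0.17 on the other arrays labelled Derlin-1 KO with 4PBA. In the Derlin-2 line Derl3 lay between -3.03 and -2.75 on control arrays, at -1.93 and -1.96 on KO arrays with 4PBA, at -0.61 on KO vehicle 2 and at -1.85 on KO vehicle 1, so for KO vehicle 1 the Derl2 level went against the label and the Derl3 level ran with it. Both arrays, labelled Derlin-2 KO vehicle 1 and Derlin-1 KO 4PBA b, are called doubtful below. For the members, values are given both ways, or the turn is stated, where leaving these arrays out turned the sign or moved the value by over 1.5 times. Values of the other gene lists were not refitted without them.

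Of the 10 genes, 5 had entries in the RefSeq table of promoters (build GRCm38.p6), with 11 windows in all. The windows are shown because RORA, the nuclear receptor encoded by Rora and needed for Purkinje cells to mature, binds DNA at sites that hold the letters AGGTCA. The search covered these letters on both strands in the 250 bases before each start, and matches are in capitals (TGACCT marks a match on the opposite strand). The first window of Pcp2 (chr8:3625548-3625797, minus strand) held a match 12 bases before the start, that of Pcp4 (chr16:96467356-96467605, plus strand) a match on the opposite strand 164 bases before it, and 1 of the 3 windows of Rgs8 (chr1:153665423-153665672, plus strand) a match 136 bases before it.
Pcp2: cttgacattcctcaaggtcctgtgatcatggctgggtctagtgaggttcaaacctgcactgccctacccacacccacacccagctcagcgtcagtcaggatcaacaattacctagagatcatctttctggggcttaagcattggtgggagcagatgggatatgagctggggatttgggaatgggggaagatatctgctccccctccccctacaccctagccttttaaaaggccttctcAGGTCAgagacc
Pcp4: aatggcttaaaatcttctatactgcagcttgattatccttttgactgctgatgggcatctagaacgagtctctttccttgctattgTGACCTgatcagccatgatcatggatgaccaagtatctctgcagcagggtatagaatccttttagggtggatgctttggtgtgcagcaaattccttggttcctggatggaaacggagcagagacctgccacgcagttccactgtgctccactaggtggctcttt
Rgs8: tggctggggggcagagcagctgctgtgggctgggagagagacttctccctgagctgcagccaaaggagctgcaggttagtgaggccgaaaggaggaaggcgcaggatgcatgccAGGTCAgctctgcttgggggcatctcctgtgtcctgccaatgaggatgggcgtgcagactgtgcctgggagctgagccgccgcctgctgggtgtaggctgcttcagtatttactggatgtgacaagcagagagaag
The same letters occurred in 14.0% of the 32851 windows of this length in the table. They were absent from the other 2 Rgs8 windows, the single Rora window, both Pvalb windows and 1 of the other 3 Pcp2 windows. A match describes the letters and is no evidence of binding, and a window without one says only that these letters are not in it.

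On its brightest probe every member except Foxp2 had RNA at a level far above the array's 75th percentile. Another probe of Rgs8 (A_52_P635598) had a mean of -0.97, and the dim Rora probe (A_55_P2068006) one of -4.36. Levels are log2 intensities minus the array's 75th percentile, and they were not set against one another between genes because probes differ in their response. Pcp2 encodes a modulator of inhibitory G proteins found in Purkinje cells and retinal bipolar cells, and its probe (A_55_P2111399) lay between 7.49 and 8.02 on the 24 arrays. Pcp4 encodes a small calmodulin-binding protein and ranged from 6.60 to 7.68, and Rgs8, an accelerator of GTP hydrolysis by G proteins, from 5.85 to 6.95. The calcium genes Itpr1 (the inositol trisphosphate receptor itself), Calb1 (the buffer calbindin) and Pvalb (the buffer parvalbumin) ranged from 6.48 to 7.08, from 5.90 to 6.38 and from 6.61 to 7.24. Car8, a carbonic anhydrase relative without enzyme activity that binds the Itpr1 protein and lowers its affinity for its ligand, ranged from 3.20 to 4.49. Ppp1r17, an inhibitor of protein phosphatases and a substrate of cGMP-dependent kinase, ranged from 2.77 to 3.31. Among the transcription factors Rora ranged from 5.19 to 5.99 and Foxp2, a forkhead factor, from -5.25 to -2.92. Several of these genes are also made outside Purkinje cells: Pvalb in molecular layer interneurons, and Rora, Foxp2, Calb1 and Pcp4 in neurons elsewhere in the brain.

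**Figure D1:**
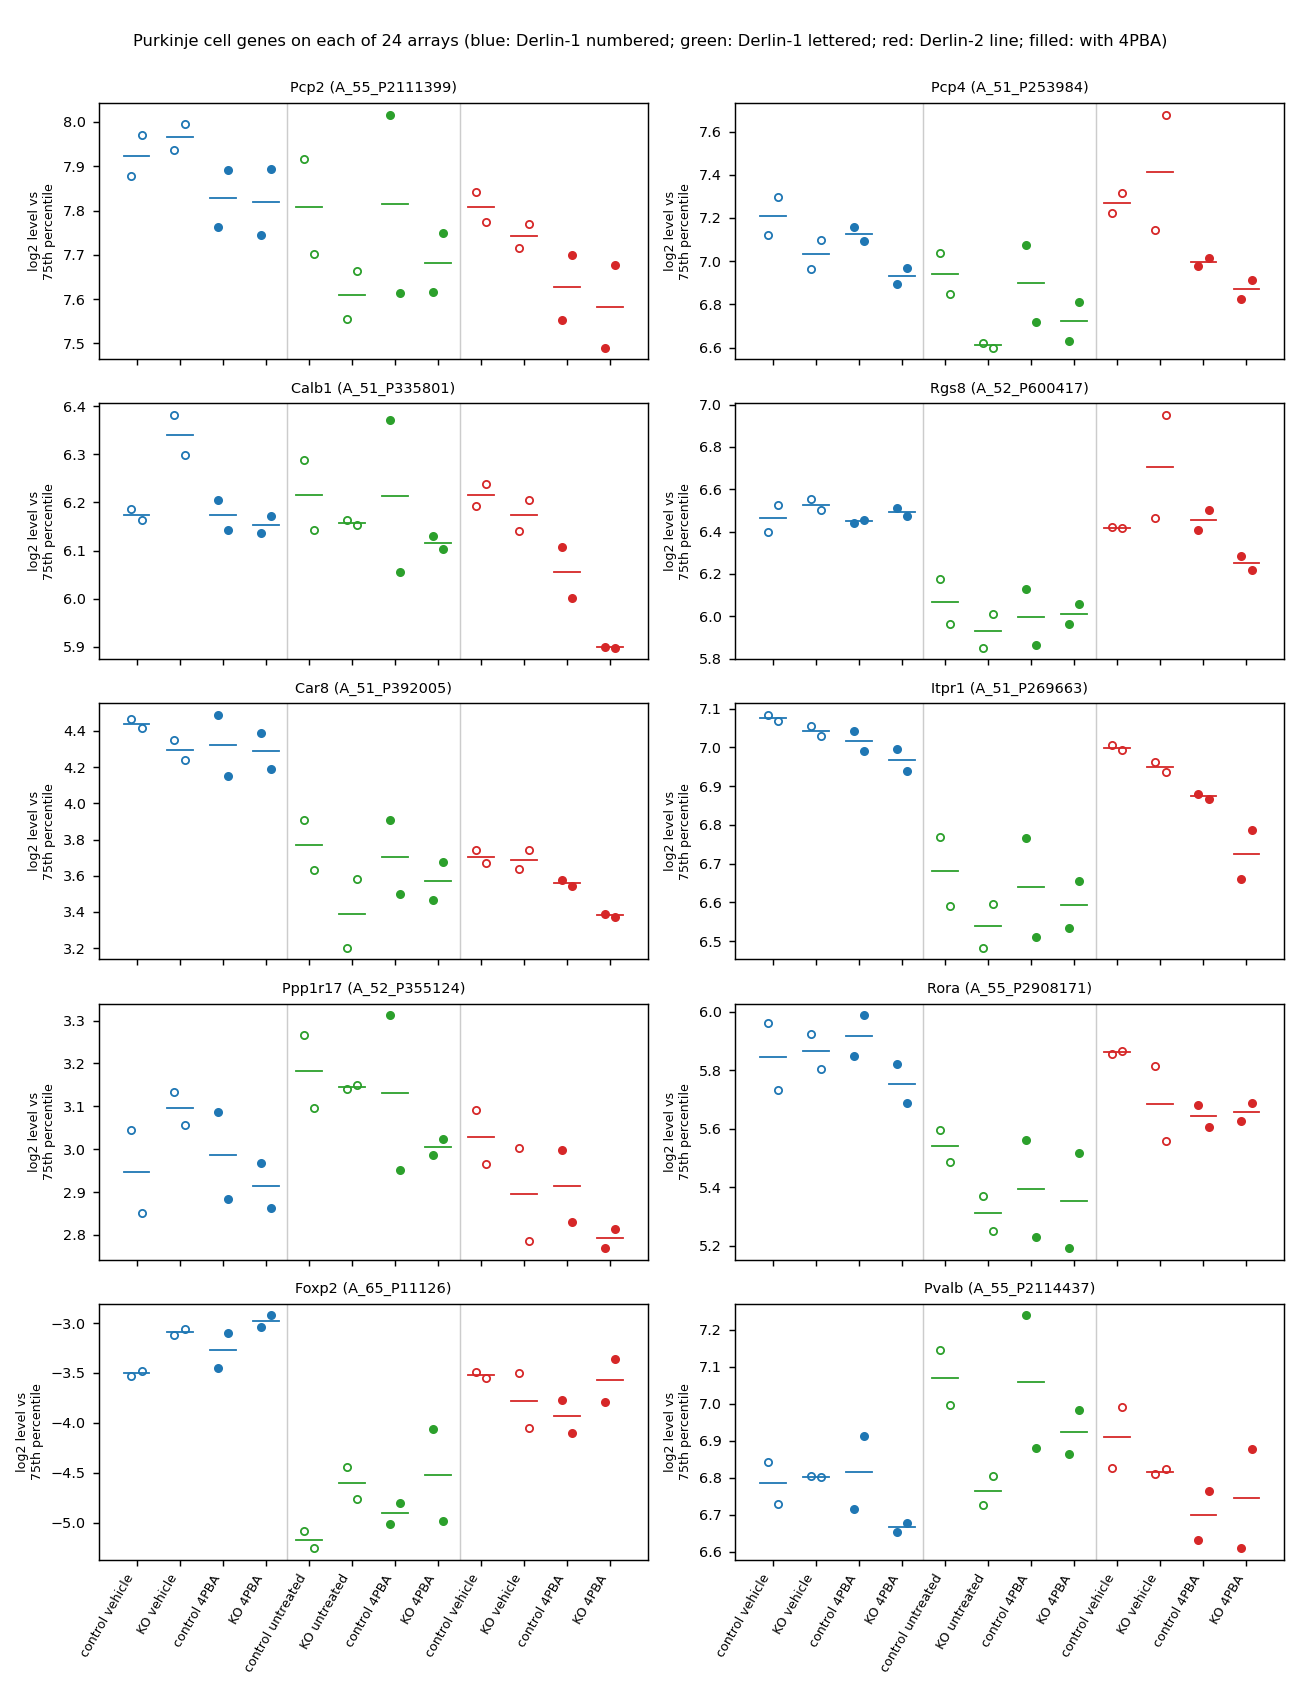
Level of each of the 10 genes on each of 24 arrays (log2 intensity relative to the array's 75th percentile, brightest probe of the gene), in 12 groups of 2 arrays; short bars are group means, open points are arrays without 4PBA and filled points arrays with it. Foxp2 has the widest range, from -5.25 to -2.92, and its lowest points are all in the lettered series; Pcp4 and Rgs8 each have their highest point at KO vehicle 2 of the Derlin-2 line.

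Controls without 4PBA were not at the same level on the 3 slides. Car8 had a mean of 4.44 in the numbered Derlin-1 series, 3.71 in the Derlin-2 line and 3.77 in the lettered series, and Foxp2 had means of -3.51, -3.52 and -5.17. For the other 8 genes the slide means differed from that of the numbered Derlin-1 series by -0.40 to 0.29. Line, series, slide and scan day cannot be told apart in these differences, so every comparison below was made within slides.

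None of the 10 member genes passed as different in Derlin-1 KO at day 28 in the fit with all arrays. Without 4PBA, none of the 17 probes passed at an adjusted p of 0.05 in limma (4 had an unadjusted p under 0.05), while 5.04% of all 38317 probes tested did and 20.2% had an unadjusted p under 0.05. The median change of the 10 genes was -0.08, beside -0.01 over 17012 genes and -0.11 over the 2373 other genes at least as bright as the Ppp1r17 probe. Of the 10 genes 7 were lower and 3 higher in KO, but this tally turned with scaling: under quantile normalization 3 were lower with a median of 0.0771, and with each array's median as the scale 9 were lower. In cerebellar tissue a loss of Purkinje cells and less RNA per Purkinje cell cannot be told apart, here or in any comparison below.

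Pcp2 was at 7.88 and 7.97 in numbered vehicle controls and at 7.94 and 7.99 in vehicle KO arrays, and at 7.92 and 7.70 in lettered untreated controls and 7.56 and 7.66 in untreated KO arrays. The groups overlapped in the numbered series and lay apart, with KO lower, in the lettered series. The averaged change was -0.08 (SE 0.09, 95% confidence interval -0.28 to 0.12, adjusted p 0.718 in limma), and Pcp2 transcript in KO was 0.95 times the control level, with bounds of 0.83 and 1.09.

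Pcp4 was at 7.12 and 7.30 in the numbered controls against 6.96 and 7.10 in KO, and at 7.04 and 6.85 in the lettered controls against 6.62 and 6.60 in KO. KO arrays were lower than controls in both series with no overlap. The change was -0.26 (SE 0.11, 95% interval -0.49 to -0.02, adjusted p 0.207 in limma), made up of -0.18 (numbered) and -0.33 (lettered). Car8 had 4.46 and 4.42 in the numbered controls against 4.35 and 4.24 in KO, and 3.91 and 3.63 against 3.20 and 3.58 in the lettered series. It too lay lower in KO in both series with no overlap. Its change was -0.26 (SE 0.11, 95% interval -0.51 to -0.01, adjusted p 0.219 in limma). Groups that did not overlap, with KO lower in both series, were found for 9.42% of all probes, and for these 2 of the 10 genes.

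Among the other calcium genes, Calb1 had 6.19 and 6.16 in numbered controls against 6.38 and 6.30 in KO, and 6.29 and 6.14 in lettered controls against 6.16 and 6.15 in KO. KO was above control in the numbered series, and in the lettered series the KO arrays lay between the controls. The averaged change was 0.05 (SE 0.07, 95% interval -0.09 to 0.20). Pvalb differed by 0.02 (numbered) and -0.31 (lettered), and by -0.14 on average (SE 0.09, adjusted p 0.419 in limma). Rgs8 had a change of -0.04 (SE 0.10) and Ppp1r17 one of 0.06 (SE 0.09). Rora, on its brightest probe, had a change of -0.11 (SE 0.10, adjusted p 0.621 in limma). The numbered series gave 0.02 and the lettered one -0.23.

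Foxp2 had the largest difference of the 10 genes. It was at -3.53 and -3.48 in numbered controls against -3.12 and -3.06 in KO, and at -5.09 and -5.25 in lettered controls against -4.44 and -4.77 in KO. All 4 KO arrays lay above the controls of their series, as did those of 9.47% of all probes. The change was 0.49 (SE 0.18, 95% interval 0.10 to 0.89, adjusted p 0.144 in limma). In a fit without both doubtful arrays the estimate was the same and the adjusted p was 0.0384; neither array belongs to this comparison, and only the shared estimate of the spread changed. Foxp2 was well above background on all 24 arrays although its level was far below the 75th percentile.

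**Figure D2:**
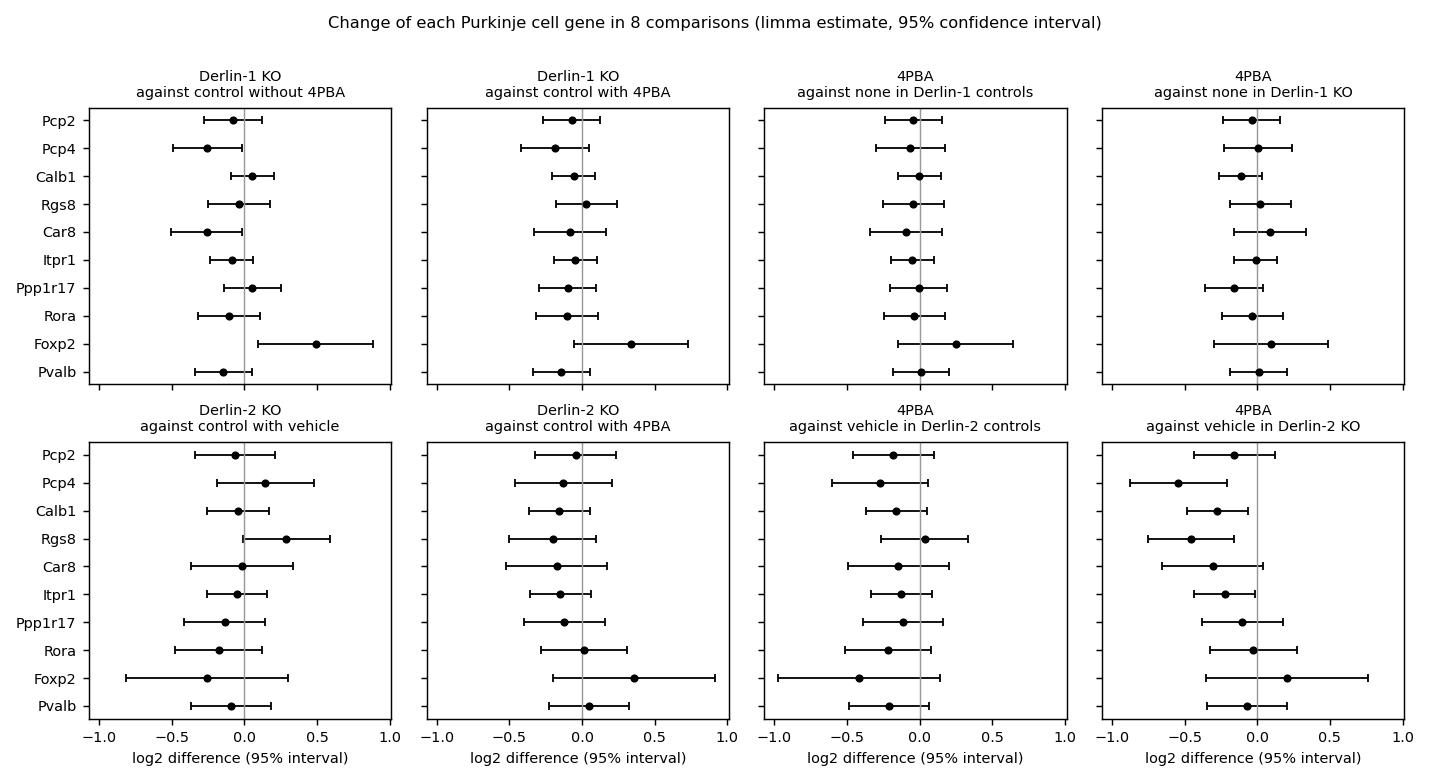
Log2 difference of each of the 10 genes in 8 comparisons (points, limma estimates; bars, 95% confidence intervals). In the Derlin-1 line the points lie between -0.26 and 0.49, and in Derlin-2 KO with 4PBA against vehicle 9 of 10 points lie below 0, with Pcp4 at -0.54 and Rgs8 at -0.45.

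Probes of the same gene did not always move together. The brightest Itpr1 probe (A_51_P269663) differed by -0.09 between Derlin-1 KO and control without 4PBA (SE 0.07, 95% interval -0.23 to 0.06), whereas a second probe (A_55_P2745593) differed by 0.30 (SE 0.09, 95% interval 0.10 to 0.51, adjusted p 0.0807 in limma). On the second probe the numbered arrays had 3.42 and 3.13 in controls against 3.57 and 3.56 in KO, and the lettered arrays 2.72 and 2.79 against 3.03 and 3.11. KO was higher in both series with no overlap. With 4PBA the second probe again lay higher in KO in both series, by 0.25 (SE 0.09, adjusted p 0.384 in limma), where such an order was found for 2.47% of all probes. The remaining Itpr1 probe (A_55_P2932328) differed by 0.19 without 4PBA (SE 0.10, adjusted p 0.293 in limma). After each slide's mean was removed, these other 2 Itpr1 probes had a Pearson r of 0.69 over the 24 arrays and the brightest probe one of 0.13 and 0.10 with them. All 3 probes are assigned to the same transcript accession in the array design, and the part of the gene each one reads is not given in the sources used here.

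The same held for other genes. The 2 Rgs8 probes had an r of -0.19, the 2 Calb1 probes 0.49 and the 2 Car8 probes 0.83 over the 24 arrays. The second Calb1 probe (A_55_P2181602) differed by -0.11 in Derlin-1 KO without 4PBA (SE 0.09), against 0.05 on the brightest. For Car8 the second probe (A_66_P126640) differed by -0.15 in Derlin-1 KO without 4PBA (SE 0.09). For Rgs8 the second probe (A_52_P635598), which read -1.49 to -0.29, differed by 0.14 (SE 0.09). The 2 brighter Rora probes had an r of 0.66, and the dim one an r of -0.34 with the brightest. These correlations share arrays, slides and array scaling and are descriptions only.

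**Figure D3:**
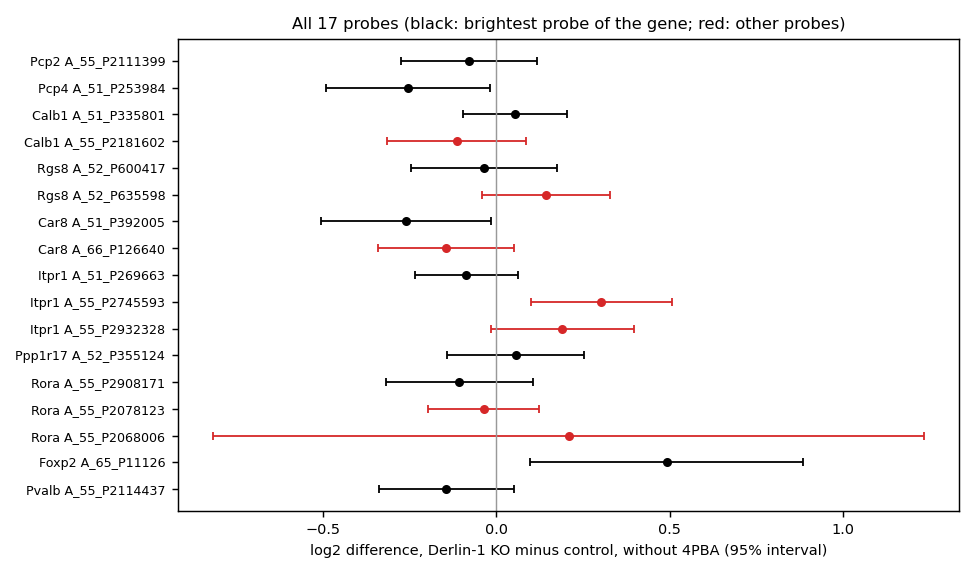
Log2 difference between Derlin-1 KO and control without 4PBA for all 17 probes (points, limma estimates; bars, 95% confidence intervals; black, the brightest probe of each gene; red, its other probes). The brightest Itpr1 probe lies at -0.09 and its 2 other probes at 0.30 and 0.19.

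Other transcripts of Purkinje cells were also compared in Derlin-1 KO without 4PBA. Of 24 genes of calcium and glutamate signalling none passed in limma, with 12 lower and 12 higher and a median of -0.02. The lowest was Itpka, a kinase that phosphorylates inositol trisphosphate, at -0.32 (adjusted p 0.214). None of the 6 zebrin stripe genes, the 3 other RORA-dependent genes, the 7 other calcium-binding proteins or the 10 myosin, ataxia and dendrite genes passed. Some genes stand in more than 1 of these lists. Among 10 transcription factors 7 were higher and 3 lower, with a median of 0.18. Esrrg, an oestrogen-related receptor, was the member that passed and fell by 0.48 (SE 0.09, adjusted p 0.012 in limma). Skor2, a corepressor needed for Purkinje cell differentiation, had 0.30 (adjusted p 0.0844) and Foxp1 had 0.38 (adjusted p 0.161).

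Genes of GABA synthesis and its loading into vesicles are shared by Purkinje cells and interneurons. Gad1, which encodes an enzyme that makes GABA, fell by 0.22 (SE 0.06, adjusted p 0.039 in limma). The vesicular transporter Slc32a1 had -0.34 (adjusted p 0.0695) and Gad2, the other synthetic enzyme, 0.11 (adjusted p 0.543). Of 7 measured interneuron markers 5 were lower and 2 higher. The 4 that passed fell: Npy by 0.92, Sorcs3 by 0.72, Tfap2b by 0.55 and Kit by 0.54 (adjusted p from 0.00751 to 0.0162 in limma). The summed level of the interneuron list, in units of the array's 75th percentile, was 13.3 to 14.9 in numbered vehicle controls against 10.1 on both KO arrays, and 13.2 to 14.95 against 9.02 to 9.80 in the lettered series. Kit and Tfap2b, the brightest probes of that list, weigh most in these sums and are among the genes that fell. Of 9 granule neuron markers Gabra6 fell by 0.76 and Neurod1 by 0.68, and the others did not pass. Of 10 microglia markers 7 rose, with a median over the list of 1.24 and a summed level of 74.2 to 79.9 in numbered controls against 84.1 to 86.4 in KO, and 55.9 to 57.9 against 67.3 to 68.2 in the lettered series. Itgam, at 5.21 to 6.17 the brightest probe of the list, weighs most in these sums and had a change of -0.12 (adjusted p 0.575 in limma). Gfap, an intermediate filament of astrocytes, rose by 1.25 (adjusted p 0.00489 in limma), 1 of 8 genes of its list to pass. None of the 8 oligodendrocyte, 4 choroid plexus, 2 unipolar brush cell or 5 measured brain stem markers passed. The part of these cell types in the members' values was not tested.

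**Figure D4:**
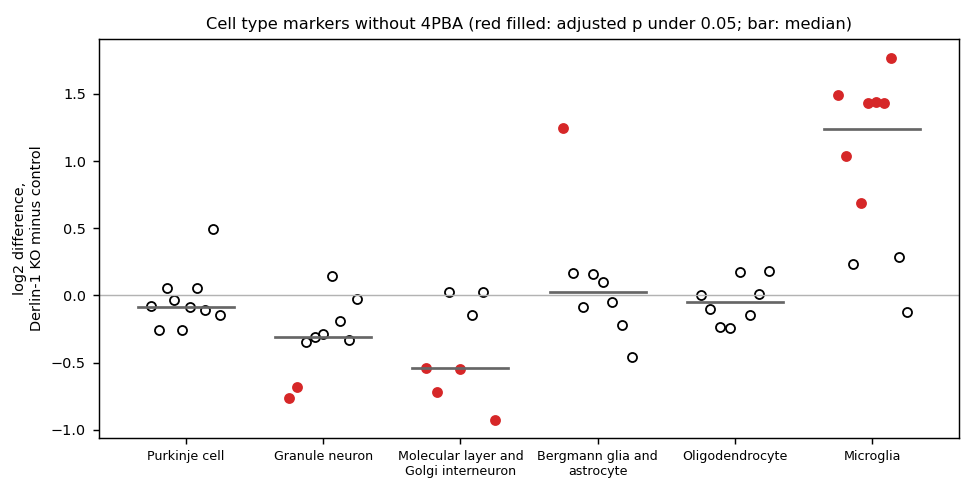
Log2 difference between Derlin-1 KO and control without 4PBA for each marker gene of 6 cell types (points; filled, adjusted p under 0.05 in limma; bars, list medians). The Purkinje cell median is -0.08 with no filled point, the interneuron median is -0.54 with 4 filled points, and the microglia median is 1.24 with 7.

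With 4PBA the members again did not pass between Derlin-1 KO and control. No member probe passed and 1 of 17 had an unadjusted p under 0.05, against 0.094% and 9.86% of all probes. That is 36 probes in all, and 1105 passed without the doubtful array KO 4PBA b. The median change was -0.08, beside -0.02 over all genes and -0.09 over the 2373 bright genes, and it was -0.18 without array b and 0.02 without array a of the lettered controls with 4PBA. Pcp4 had -0.19 (SE 0.11, adjusted p 0.644 in limma), Pvalb -0.14 (SE 0.09) and Foxp2 0.34 (SE 0.18, adjusted p 0.6 in limma). The 4PBA groups of the lettered series include the one labelled Derlin-1 KO 4PBA b, on which Foxp2 was at -4.98, between the controls at -5.01 and -4.80, while array a of the same group had -4.07. Without both doubtful arrays the Foxp2 change was 0.57 (adjusted p 0.0566 in limma), Rora had -0.18 in place of -0.10, Car8 -0.13 in place of -0.08, and no member probe passed.

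4PBA was also compared with no 4PBA within each genotype of the Derlin-1 line. In controls the changes of the 10 genes ran from -0.09 to 0.25 with a median of -0.04, and in KO from -0.16 to 0.09 with a median of 0.00; all genes had medians of 0.00 and -0.01, and the bright genes 0.00 and 0.02. No member probe passed in either comparison, or had an unadjusted p under 0.05, while 0.0522% and 0.0809% of all probes passed and 2.38% and 5.54% had such a p. Foxp2 was higher with 4PBA in controls of both series without overlap, by 0.25 (SE 0.18), an order that 1.19% of all probes had. Foxp2, at 0.09 in KO, was at 0.32 without the doubtful array KO 4PBA b, Rora at -0.11 in place of -0.03, and the median in KO was -0.04 without it. The median in controls depended on 1 array of the lettered controls with 4PBA: it was -0.11 without array a and 0.05 without array b. Ppp1r17 was lower with 4PBA in KO of both series without overlap, with 3.13 and 3.06 against 2.97 and 2.86 (numbered) and 3.14 and 3.15 against 2.99 and 3.02 (lettered). Its change was -0.16 (SE 0.09, adjusted p 0.957 in limma). Calb1 was also lower in both series, by 0.11 on average (SE 0.07, adjusted p 0.966 in limma), so that 2 of 10 genes had this order, which 4.08% of all probes had. The effect of 4PBA did not pass as different between KO and controls for any member probe, against 0.0444% of all probes. The estimates of that difference ran from -0.15 for Ppp1r17 to 0.18 for Car8, with SE of 0.13 and 0.16. Foxp2 had -0.15, and 0.08 without the doubtful array.

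In the Derlin-2 line with vehicle the values depended on which KO array was used. The changes ran from -0.26 for Foxp2 to 0.29 for Rgs8 with a median of -0.06, beside -0.01 over all genes and 0.01 over the bright genes, and no member probe passed (2 of 17 with an unadjusted p under 0.05, against 0.154% passing and 6.98% with such a p over all probes). Rgs8 was at 6.42 and 6.42 in controls against 6.46 and 6.95 in KO. The high value belonged to the array labelled KO vehicle 2. The other KO array, labelled KO vehicle 1 and doubtful, lay just above the controls. The change was 0.29 (SE 0.14, 95% interval -0.01 to 0.59, adjusted p 0.726 in limma), and leaving out KO vehicle 1 gave 0.53 and leaving out KO vehicle 2 gave 0.05. Pcp4 had 7.22 and 7.32 in controls against 7.15 and 7.68, so that the KO arrays lay on both sides of the controls, with a change of 0.14 (SE 0.16), which was 0.41 without KO vehicle 1 and -0.12 without KO vehicle 2. Foxp2 had -0.26 (SE 0.26), -0.54 without KO vehicle 1 and 0.02 without KO vehicle 2. Ppp1r17 had -0.13, and -0.24 without both doubtful arrays. Neither set of values brought a member probe past the threshold. A second Rora probe (A_55_P2078123) had 2.93 and 2.81 in controls against 2.61 and 2.44 in KO, and lay lower in KO without overlap. Of the 10 genes 4 had this order on their brightest probe and 1, Rgs8, the opposite one, against 24% and 23% of all probes. The second Rora probe differed by -0.34 (SE 0.11, adjusted p 0.471 in limma), and the brightest Rora probe differed by -0.18 (SE 0.14), or -0.31 without both doubtful arrays.

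With 4PBA the Derlin-2 comparison gave a median of -0.13, beside -0.03 over all genes and -0.05 over the bright genes, with no member probe passing and none with an unadjusted p under 0.05, against 0.287% and 5.14% of all probes. In 6 of the 10 genes both KO arrays lay below both controls, against 18.5% of all probes. Markers of other tissue differed between the same groups without passing: 4 of 4 choroid plexus genes were higher in KO, with a median of 1.95, and 6 of 8 oligodendrocyte genes lower, with a median of -0.28. Their part in the members' values was not tested. Calb1 had 6.11 and 6.00 in controls against 5.90 and 5.90 in KO, a difference of -0.16 (SE 0.10). Rgs8 had 6.41 and 6.50 against 6.28 and 6.22, a difference of -0.20 (SE 0.14).

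Arrays with 4PBA in the Derlin-2 line had lower levels of most members than arrays with vehicle, in controls and in KO, without passing the test. In controls 9 of 10 genes were lower, with a median of -0.17 beside -0.04 over all genes and -0.07 over the bright genes, and in 8 genes both 4PBA arrays lay below both vehicle arrays, as in 25% of all probes. No member probe passed, and 3 of 17 had an unadjusted p under 0.05, against 0.282% and 6.53% of all probes. In KO 9 of 10 were lower (7 of 10, with a median of -0.20, without both doubtful arrays, where Ppp1r17 was at 0.01 and Rora at 0.10), with a median of -0.19 beside -0.06 over all genes and -0.14 over the 2373 bright genes, and 6 genes did not overlap, against 24.1% of all probes. No member probe passed there either, and 4 of 17 had an unadjusted p under 0.05, against 0.264% and 7.91% of all probes. The size of these medians depended on scaling. With each array's median in place of its 75th percentile all genes shifted by -0.20 in controls and -0.30 in KO, and the members' medians were -0.34 and -0.44. The members' median minus that of all genes was -0.13 in controls and -0.14 in KO as reported, a difference that this change of scale cannot alter. With quantile normalization the members' medians were -0.08 in both, and the difference from all genes was -0.03 in both.

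Itpr1 was at 7.01 and 6.99 with vehicle and at 6.88 and 6.87 with 4PBA in Derlin-2 controls, and at 6.96 and 6.94 against 6.66 and 6.79 in KO. The 4PBA arrays were lower in both genotypes with no overlap. The changes were -0.13 (SE 0.10, adjusted p 0.88 in limma) and -0.22 (SE 0.10, adjusted p 0.588 in limma), and with quantile normalization that in controls was 0.02. Calb1 had 6.19 and 6.24 with vehicle against 6.11 and 6.00 with 4PBA in controls, and 6.14 and 6.21 against 5.90 and 5.90 in KO. Its changes were -0.16 (SE 0.10) and -0.27 (SE 0.10, adjusted p 0.461 in limma), while its second probe had -0.02 and 0.00 (SE 0.13 each). In KO that probe had 1.11 and 1.17 with vehicle against 1.17 and 1.11 with 4PBA. Without the doubtful array KO vehicle 1 its change in KO is below 0. Car8 had 3.74 and 3.67 against 3.57 and 3.54 in controls and 3.64 and 3.74 against 3.39 and 3.37 in KO. It was lower with 4PBA on every array of each genotype, with changes of -0.15 and -0.31 (SE 0.16 each).

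Pcp4 and Rgs8 had the largest 4PBA differences in Derlin-2 KO. Pcp4 was at 7.15 and 7.68 with vehicle against 6.83 and 6.91 with 4PBA, and at 7.22 and 7.32 against 6.98 and 7.01 in controls. Rgs8 was at 6.46 and 6.95 against 6.28 and 6.22 in KO, and at 6.42 and 6.42 against 6.41 and 6.50 in controls. Both genes were lower with 4PBA in KO without overlap, and in controls Pcp4 was lower while the Rgs8 groups overlapped. In KO Pcp4 differed by -0.54 (SE 0.16, 95% interval -0.88 to -0.21, adjusted p 0.303 in limma) and Rgs8 by -0.45 (SE 0.14, 95% interval -0.75 to -0.16, adjusted p 0.347 in limma). The size rested on 1 array, labelled KO vehicle 2, which had the highest Pcp4 and Rgs8 levels of all 24 arrays. Without the array labelled KO vehicle 1 the differences were -0.81 (adjusted p 0.0338) and -0.70 (adjusted p 0.0377), and both passed, with the lone vehicle array assumed to vary like the other groups. Without the array labelled KO vehicle 2 they were -0.28 and -0.21 (adjusted p 0.984 each). The test of whether the 4PBA effect differed between KO and controls gave -0.49 for Rgs8 (SE 0.20, unadjusted p 0.0257, adjusted p 0.909 in limma) and -0.27 for Pcp4 (SE 0.22); no member probe passed, against 0.206% of all probes. Without both doubtful arrays these were -0.73 (adjusted p 0.194) and -0.54 (adjusted p 0.586). The second Rgs8 probe differed by -0.09 in KO (SE 0.12), or 0.05 without both doubtful arrays, and by -0.28 in controls (SE 0.12, adjusted p 0.736 in limma), the opposite order of the brightest probe.

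**Figure D5:**
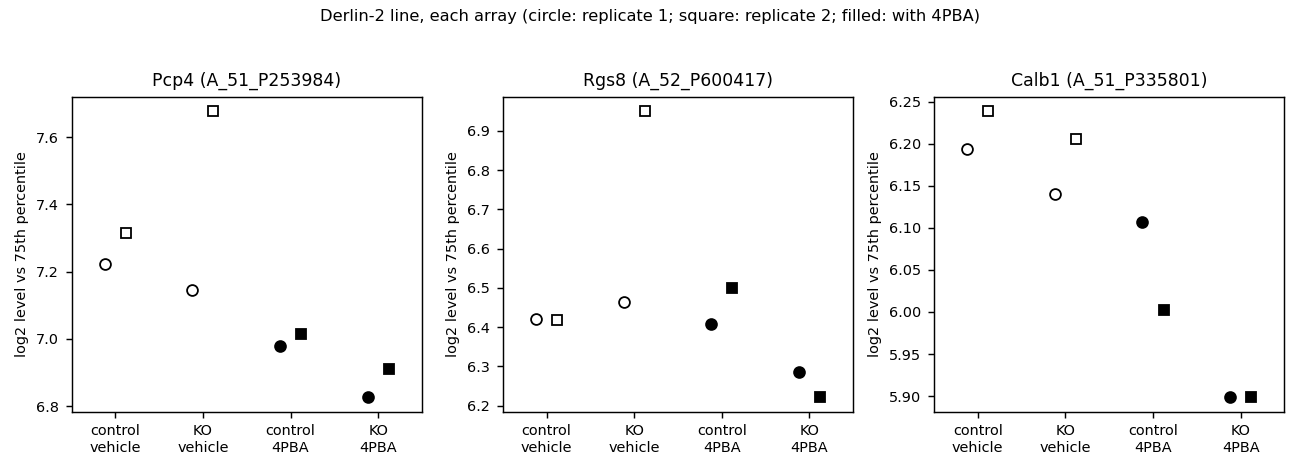
Levels of Pcp4, Rgs8 and Calb1 on the 8 arrays of the Derlin-2 line (log2 intensity relative to the array's 75th percentile; circles, replicate 1; squares, replicate 2; open, vehicle; filled, 4PBA). The open square of the KO vehicle group is the highest point for Pcp4 at 7.68 and for Rgs8 at 6.95, and both Calb1 points with 4PBA in KO lie at 5.90.

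Related Purkinje cell lists had values of the same sign on the Derlin-2 slide. Of the 24 signalling genes 22 were lower with 4PBA in controls and 20 in KO, while 59.5% and 61.8% of all genes were lower. The signalling genes had medians of -0.11 and -0.12, beside -0.04 and -0.06 over all genes and -0.07 and -0.14 over the 2373 bright genes. None of the 24 passed in limma. The lowest in KO was Atp2a2, the calcium pump of the ER, at -0.47 (adjusted p 0.337), and the highest was Camk2a at 0.22. Of the 10 transcription factors 8 were lower in each genotype, with medians of -0.06 and -0.11. Markers of other tissue moved between the same arrays. The choroid plexus list had a median change of -1.42 with 4PBA in controls and 0.14 in KO, and its summed level was 121 to 149 with vehicle against 30.1 to 79.0 with 4PBA in controls, and 114 to 233 against 155 to 210 in KO. In KO the vehicle sums lay on both sides of the 4PBA sums, so the order there depends on which vehicle array is used. Astrocyte and Bergmann glia markers were lower in 8 of 8 genes in controls, with a median of -0.19, and in 5 of 8 in KO, with a median of -0.05. In KO the mean log2 level of this list was 3.40 on the doubtful array KO vehicle 1 and 3.23 on KO vehicle 2. With 4PBA it was 3.22 and 3.32, on both sides of KO vehicle 2. Granule neuron markers had medians of -0.01 in both. Interneuron markers were lower in 7 of 7 measured genes in controls, with a median of -0.10, and in 5 of 7 in KO, with a median of -0.05. Oligodendrocyte markers had medians of 0.04 in controls and -0.11 in KO, and microglia markers -0.12 and -0.03. No gene of these lists passed, and their part in the members' values was not tested. The KO values of all lists in this paragraph include the doubtful array KO vehicle 1 and were not refitted without it.

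The lines were also compared directly. No member probe passed for a different KO effect without 4PBA between the Derlin-1 and Derlin-2 lines; among the 10 genes the widest estimates were 0.75 for Foxp2 (SE 0.32, adjusted p 0.408 in limma) and -0.40 for Pcp4 (SE 0.19, adjusted p 0.467 in limma). Nor did any pass for a different effect of 4PBA. In KO that difference was 0.55 for Pcp4 (SE 0.19, adjusted p 0.758 in limma) and 0.48 for Rgs8 (SE 0.17, adjusted p 0.783 in limma), and it includes both doubtful arrays. Without them the KO effect differed by 1.03 for Foxp2 (adjusted p 0.0894 in limma) and -0.66 for Pcp4 (adjusted p 0.111), and the effect of 4PBA in KO by 0.77 for Pcp4 (adjusted p 0.191) and 0.70 for Rgs8 (adjusted p 0.19). Over all probes 0.0966% passed for the KO effect, 0.138% for that of 4PBA in controls and 0.133% for that in KO.

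The members varied together across arrays. After each slide's mean was removed, the 45 pairs of the 10 genes had a median Pearson r of 0.55 over the 24 arrays, with 36 pairs above 0. Itpr1 had an r of 0.90 with the mean of the other 9 genes, Calb1 0.84 and Pcp2 0.81, while Foxp2 had -0.41. In the lettered series all 10 genes were higher on array a than on array b of the untreated controls (median difference 0.17), and 9 of 10 were in the controls with 4PBA (0.34). Among KO arrays the order was the other way for 6 genes without 4PBA and for 8 with it. The members' mean, as a deviation from the slide's mean, had an r of -0.52 with the log2 of the array's 75th percentile, from which the levels are computed. The genes whose levels were most like the members' mean, among 14256 other genes well above background on all arrays, were Rpl28 (r 0.93), Rplp2 (0.92) and Rpl27 (0.91), which encode ribosomal proteins, Psmb6 (0.90), a proteasome subunit, and Uqcrq (0.89), a subunit of respiratory complex III. For Pcp4 alone they were Atp5g2 (0.95), St6galnac6 (0.93) and Rnf187 (0.93), and for Rgs8 Pi4k2a (0.90), Ndufv1 (0.88) and Prelid1 (0.86). These values share arrays, scaling and slides and are descriptions only.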

How the data were processed

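Total RNA of mouse cerebellum, Cy3-labelled, was measured on 24 single-colour Agilent arrays, per the labels' protocols. The deposited value used was each spot's processed signal, a linear intensity that Agilent Feature Extraction (version 10.7.1.1, per the submitters' processing notes) had corrected for background, per the file headers; no normalization between arrays is recorded. Control spots were left out and flagged spots (52 to 637 per array) were treated as missing; no spot was saturated. Each array's 75th percentile (890 to 1169) was subtracted on the log2 scale. The filter on dim probes kept those that the scanner software marked as well above background throughout 1 or more groups. Names came from transcript accessions matched to RefSeq (GRCm38.p6), which gave 32994 of 56605 probes a symbol; the headers name another build, so no coordinates are given other than those of the RefSeq promoters.

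All arrays entered 1 limma model (limma 3.58.1, R 4.3.3, data.table version 1.17.8) with a mean per group, with 12 residual and 1.9 prior degrees of freedom. Derlin-1 comparisons averaged both series with equal weight. Tests were two-sided, and p-values were adjusted by Benjamini-Hochberg over all probes tested in a comparison, so every adjusted p given for a gene is limma's. The pipeline was tested on simulated data. With 2 arrays per group the median standard error (SE) over all probes was 0.14 for Derlin-1 and 0.20 for Derlin-2 comparisons, and the number of arrays limits the precision. All 10 members are named, each by its brightest probe, with other probes where the text describes them; from other lists the text names up to 6 genes that passed, otherwise the highest and lowest, and a few more chosen after their values were seen; some results of these lists are not reported here. The members and lists were chosen with earlier results of these data known. Alternatives covered background correction, scaling, filters, array weights, samples in the fit and arrays left out.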

Additional observations from a re-analysis of the deposited data

Results flagged for a closer look

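Pvalb, which encodes the calcium buffer parvalbumin, had opposite differences with 4PBA in the Derlin-1 KO arrays of the 2 series. In the numbered series the vehicle arrays had 6.80 and 6.80 and the 4PBA arrays 6.65 and 6.68, a difference of -0.14. In the lettered series the untreated arrays had 6.73 and 6.80 and the 4PBA arrays 6.86 and 6.98, a difference of 0.16 (0.10 without the doubtful array labelled KO 4PBA b). Every array of one series moved down and every array of the other up, and the difference between the series was not tested. The higher of the lettered 4PBA values came from replicate b, the array whose label its Derl3 level went against.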

How the results depend on the processing

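No member probe passed in any of the 13 tests as reported, nor in any alternative except these. In Derlin-2 KO with 4PBA against vehicle, 1 probe passed with no filter on dim probes (Pcp4, -0.54, adjusted p 0.0483; 5518 of all probes passed there, against 101 as reported), 0 to 2 passed when 1 array was left out (Pcp4 and Rgs8 without the array labelled KO vehicle 1, where 163 of all probes passed), and 1 passed without both doubtful arrays (Pcp4, -0.81, adjusted p 0.039; Rgs8 had -0.70 and 0.0507; 176 of all probes). In Derlin-1 KO without 4PBA, 1 passed without those 2 arrays (Foxp2, 0.49, adjusted p 0.0384; 2329 of all probes). Over all probes the count passing in Derlin-1 KO without 4PBA, 1932 as reported, was 11 (numbered series alone), 237 (lettered series alone), 321 with the Derlin-1 arrays alone in the fit and 1069 with no filter on dim probes. Leaving out 1 array gave 410 (untreated KO a) to 3317 (untreated KO b), with 741 without control vehicle 2, 793 and 625 without KO vehicle 1 or 2, 657 without untreated control a and 1160 without control vehicle 1. Over the alternatives the count ran from 1 to 1105 in Derlin-1 KO with 4PBA, 0 to 90 and 1 to 181 for 4PBA in Derlin-1 controls and KO, 10 to 178 and 19 to 240 in Derlin-2 KO with vehicle and with 4PBA, and 19 to 3950 and 16 to 5518 for 4PBA in Derlin-2 controls and KO. Some same-numbered arrays deviated together and others did not (r of -0.22 to 0.35, -0.10 to 0.21 and, lettered, -0.13 to 0.66 on the 3 slides), so the number was not taken as a pairing; with the replicate number as a block 2260 probes passed there and 0 members in every test.

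The members' median moved with scaling, with the series used and with single arrays. Quantile normalization gave 0.0771 and 7e-04 for Derlin-1 KO without and with 4PBA, and -0.0761 and -0.0802 for 4PBA in Derlin-2 controls and KO. With each array's median as the scale the medians were -0.19 and -0.14 for Derlin-1 KO without and with 4PBA, -0.11 for 4PBA in Derlin-1 controls, -0.22 for Derlin-2 KO with 4PBA, and -0.34 and -0.44 for 4PBA in Derlin-2 controls and KO; all genes shifted too, by -0.12, -0.08, -0.07, -0.12, -0.20 and -0.30. The numbered series alone gave 0.0303 and the lettered -0.17 for Derlin-1 KO without 4PBA, and -0.11 and 0.0755 for 4PBA in Derlin-1 KO. Leaving out 1 array at a time gave -0.18 to 0.0192 for Derlin-1 KO with 4PBA and -0.11 to 0.051 for 4PBA in Derlin-1 controls.

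A direction was counted only where the change exceeded its SE. Of all 1751 gene values over the alternatives, 110 turned sign where the change as reported was within its SE. Beyond these, Itpr1 had 0.0882 in Derlin-1 KO without 4PBA and 0.0166 with 4PBA in Derlin-2 controls under quantile normalization, Rora had 0.0212 in Derlin-1 KO without 4PBA under quantile normalization and 0.0185 in the numbered series alone, Pvalb had 0.0173 there in the numbered series alone, and Foxp2 had 0.0174 in Derlin-2 KO with vehicle without the array labelled KO vehicle 2. The cause was not tested. The alternative background correction (normexp, offset 50) used the median spot signal, chosen after seeing the data, and no member's call changed under it, while counts over all probes did change (2141 in Derlin-1 KO without 4PBA).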
